A study of Homo sapiens and Mus musculus with 19 samples.

Results

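Replication licensing genes build and load the MCM helicase at replication origins. The set was defined by name as 10 genes, ORC1, CDC6, CDT1, MCM2, MCM3, MCM4, MCM5, MCM6, MCM7 and MCM10, and was followed in human K562 cells and, as mouse orthologues with the same symbols, in mouse embryonic stem cells (mESCs). All 10 were among the 58721 genes counted in K562 cells and passed the count filter that left 26023 genes for testing. In mESCs all 10 were among 54446 genes counted, and 9 were among the 27603 genes tested, because Cdt1 had no count.

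The study sequenced chromatin-associated RNA (caRNA), the nascent and retained RNA that stays with the chromatin pellet after the cytoplasm and soluble nucleoplasm are washed away, to ask how RNA 5-methylcytosine, its oxidase TET2 and its reader MBD6 affect transcription. K562 is an established human chronic myelogenous leukaemia line. Wild-type (WT) and TET2 knockout (KO) K562 cells were labelled as carrying a control hairpin (shControl) or a hairpin against MBD6 (shMBD6), which gave 4 groups of 3 libraries. Per the labels' protocol such cells were made with lentivirus and kept in puromycin, but a sample list in the study's supplement names siRNA (siNC or siMBD6) for K562 caRNA, so the kind of knockdown is uncertain. mESCs were transfected with control siRNA (siControl) or with siRNA that targets Nsun2 (siNsun2), the gene of a methyltransferase that writes RNA 5-methylcytosine, in 2 groups of 3 libraries. All mESCs were grown in serum with LIF and inhibitors of GSK3 and MEK. The knockout cells had been made earlier, and whether they are a single clone is not given in the sources used here.

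Gene counts per library ranged from 52158403 to 102070223 in K562 cells and from 58078323 to 66832780 in mESCs, and single members had 647 to 19811 counts in K562 and, Cdt1 aside, 2178 to 9783 in mESCs. MBD6 stood at 41.5 ± 2.55 CPM (counts scaled to library size, mean ± SD, n = 3) in WT shControl and 27.96 ± 2.71 in WT shMBD6. It was lower there by 0.57 ± 0.08 (SE) on the log2 scale (adjusted p = 1.83e-07 in edgeR's quasi-likelihood test), in the direction of the labels. NSUN2, which was not targeted, fell by 0.43 ± 0.04 (adjusted p = 4.95e-11) in the same comparison. Of genes with an average log2 CPM of 5 or more, 59.3% were called lower. The fall of MBD6 is thus weak evidence of its knockdown. In the KO, MBD6 stood at 30.3 ± 0.750 in the libraries labelled shControl and at 34.4 ± 3.86 in those labelled shMBD6. This was a log2 difference of 0.19 ± 0.08 (SE) with an adjusted p of 0.0574 in edgeR's quasi-likelihood test. By its mean MBD6 therefore goes against the knockdown labels of the KO libraries, though this difference did not pass. No knockdown was seen there, and every direction between these libraries is given as labelled. TET2 RNA, at 121 ± 2.59 CPM in WT shControl and 129 ± 2.23 in the KO libraries labelled shControl, does not check the genotype, since a knockout allele can still be transcribed. In the KO libraries labelled shMBD6 it was lower, at 94.8 ± 5.28 CPM, by 0.44 ± 0.04 on the log2 scale against the KO labelled shControl (adjusted p = 7.24e-11 in edgeR) and by 0.36 ± 0.04 against WT shMBD6 at 122 ± 4.07 (adjusted p = 3.90e-09). Nsun2 was 129 ± 3.45 CPM in siControl and 103 ± 3.55 in siNsun2, lower by 0.34 ± 0.03 on the log2 scale (adjusted p = 2.78e-16 in edgeR). Genes with an average log2 CPM of 5 or more had a median of -0.21 there, and 78.7% of them were called lower. Tet2, which was not targeted, fell by 0.42 ± 0.02, and Mbd6 by 0.16 ± 0.07 without passing. The fall of Nsun2 is thus weak evidence of its depletion. The labels call K562 a lymphoblast cell: 6 lymphocyte markers summed to between 1.48 and 4.80 CPM in the 12 libraries, and 11 erythroid and K562 markers to between 2188 and 2445. Much of the second sum was ABL1, at 1133 CPM in WT shControl and 1460 in the KO labelled shControl. HBG1 stood at 6.63 and 0.990 CPM in the same groups, and 2 of the 11 markers were at 0 in each group. In mESCs, Nanog stood at 116 ± 1.499 and Esrrb at 531 ± 8.19 CPM in siControl, while Sox2 was listed at 0 in all 6 libraries.

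Licensing is the step that allows each origin to fire once per cell cycle. ORC, of which ORC1 is the largest subunit, marks the origin, CDC6 and CDT1 then load rings of MCM2 to MCM7 around DNA before S phase, and MCM10 helps to activate the loaded helicase when the origin fires. The promoters of many of these genes bind E2F factors, which RB family proteins hold in check until cells commit to S phase, so their transcription is usually high in proliferating cells and low in resting cells.

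The promoter sequences are shown because E2F binding, described for many of these genes, was not used in the choice by name. RefSeq promoter windows (GRCh38.p14, 250 bases before to 50 bases after the annotated start) were found for 8 of the 10 human members, all but MCM4 and MCM5, with 3 alternative windows for MCM7. They were searched on both strands for 4 E2F-like octamers, TTTCCCGC, TTTCGCGC, TTTGCCGC and TTTGGCGC, and for the pentamer CCAAT. At least 1 of the octamers lay in 3.31% of all 35116 windows and in 6 of the 10 member windows, 1 each for CDC6, CDT1, MCM2, MCM3, MCM6 and MCM7. CCAAT lay in 34.6% of all windows and in 8 of the 10 member windows, which belong to 6 members. The lines below give up to 30 bases around an E2F-like match, read along the gene's own strand, with the octamer or its reverse complement in capitals.
CDC6 (chr17:40287875-40287904, plus strand): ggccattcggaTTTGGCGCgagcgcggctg
CDT1 (chr16:88803743-88803772, plus strand): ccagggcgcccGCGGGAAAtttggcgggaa
MCM2 (chr3:127598402-127598431, plus strand): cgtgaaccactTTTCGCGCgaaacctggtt
MCM3 (chr6:52284728-52284757, minus strand): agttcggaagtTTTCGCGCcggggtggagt
MCM6 upstream (chr2:135876577-135876606, minus strand): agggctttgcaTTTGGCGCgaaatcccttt
MCM6 downstream (chr2:135876515-135876544, minus strand): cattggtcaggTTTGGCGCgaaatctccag
MCM7 (chr7:100101388-100101417, minus strand): ggggggcgacgTTTCGCGCcaatttcggtt
In MCM2 and at both sites of MCM6 the same letters, read on the opposite strand, give a second match that overlaps the one in capitals. MCM3 and MCM7 each held another match farther from the start. ORC1 and MCM10 held none of the octamers in this window and held 1 and 2 CCAAT matches. The first windows of the members held from 55.3% (ORC1) to 74.3% (CDT1) G and C, and the shares over all windows were not matched for this. A match is a run of letters in a window, not a measured site.

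**Figure D1:**
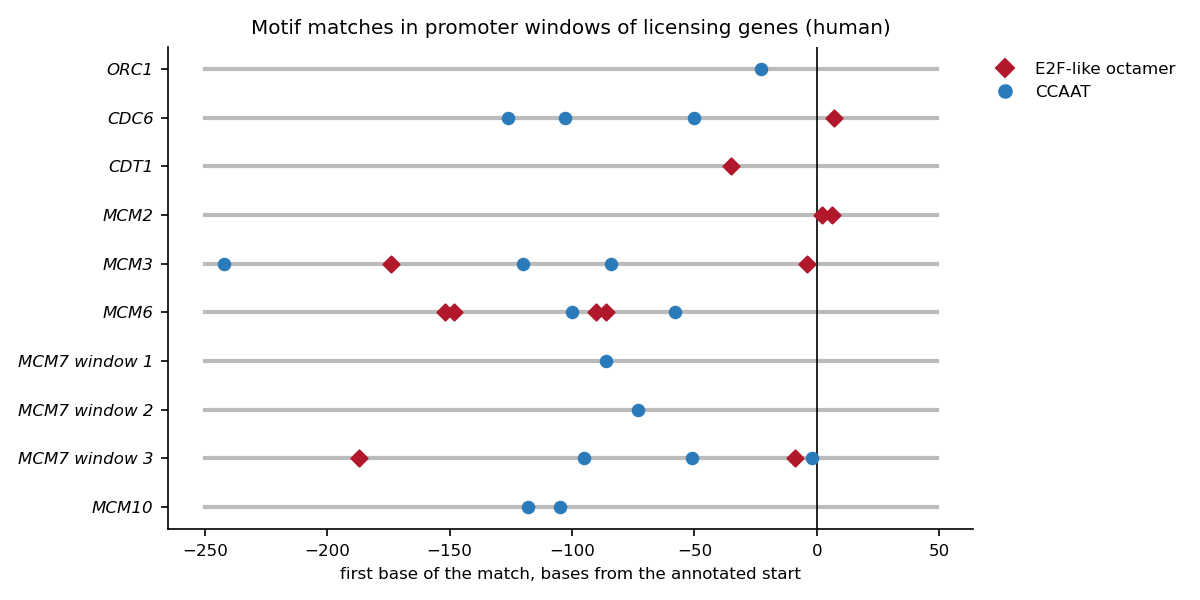
Positions of E2F-like octamers (red diamonds) and of CCAAT (blue circles) in the promoter windows of 8 licensing genes, by distance of the first base of the match from the annotated start (x axis, bases). The octamers lie between -187 and 7, and MCM6 holds 2 overlapping pairs before the start.

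Levels between genes were compared per kilobase of merged exon. In WT shControl K562 cells MCM3 was highest at 51.4 ± 2.30 CPM per kb, ORC1 followed at 39.3 ± 0.685, and CDT1 was lowest at 4.84 ± 0.552. MCM7 (23.9 ± 1.04) and MCM6 (23.2 ± 0.514) had overlapping ranges, as did CDC6 (12.7 ± 0.679) and MCM2 (11.8 ± 0.820). MCM10 at 15.9 ± 0.0344, MCM5 at 14.0 ± 0.983 and MCM4 at 9.78 ± 0.223 CPM per kb completed the order. Subunits that are present once each in the MCM2 to MCM7 ring thus spanned 5.26-fold in this measure. MCM4, the lowest of them, was divided by 9.85 kb of merged exon, against 3.59 kb for mouse Mcm4, so its place depends on the annotated length. Per kb of gene span, introns included, the highest member was MCM7 at 12.2 CPM per kb, ahead of MCM3 at 8.98, so the order depended on which length was used. In siControl mESCs Orc1 was highest at 42.2 ± 1.29 CPM per kb of exon, Mcm5 stood at 38.9 ± 0.274, Mcm3 at 33.0 ± 0.380 and Cdc6 lowest of those detected at 7.83 ± 0.150.

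In K562 cells the members shared one order of groups. They were high in WT shControl, low in WT shMBD6 and in the KO libraries labelled shControl, and high again in the KO libraries labelled shMBD6. For 8 of the 10 members each of the 6 libraries of the first and last of these groups lay above each of the 6 libraries of the middle groups, a pattern that 9.64% of all genes tested and 21.6% of well-expressed genes (an average log2 CPM of 5 or more, like every member but CDT1) also showed. MCM7 and CDT1 were the exceptions. The share of all gene counts taken by the 10 members was 0.0968% ± 0.00172 in WT shControl, 0.0726% ± 0.00167 in WT shMBD6, 0.0690% ± 0.00142 in the KO labelled shControl and 0.106% ± 0.00241 in the KO labelled shMBD6. In bulk RNA, fewer cells in the phase that transcribes these genes and less RNA per cell cannot be told apart.

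ORC1 (chr1:52372829-52404423, minus strand), the origin-recognition subunit that is made anew in each cycle, had 121, 122 and 125 CPM in WT shControl and 90.1, 90.8 and 94.5 in WT shMBD6. Its KO libraries had 93.8, 92.8 and 95.1 CPM under the shControl label and 115, 124 and 116 under the shMBD6 label. The WT shControl and KO shMBD6 libraries overlapped each other and stood clear of the rest.

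CDC6 (chr17:40287879-40304657, plus strand), the ATPase that recruits the helicase to ORC, had 63.1, 69.9 and 68.6 CPM in WT shControl and 43.4, 44.6 and 46.6 in WT shMBD6. In the KO it had 51.8, 56.2 and 53.3 CPM in the libraries labelled shControl and 82.8, 82.1 and 80.1 in those labelled shMBD6. No group of CDC6 overlapped another. CDT1 (chr16:88803789-88809258, plus strand), the partner that carries the MCM ring to the origin, was measured at a far lower level, with 14.9, 11.9 and 13.3 CPM in WT shControl and 14.0, 11.4 and 11.8 in WT shMBD6. Its KO libraries had 15.2, 11.8 and 11.98 CPM under the shControl label and 17.2, 17.1 and 15.8 under the shMBD6 label. Only the last group stood apart, and replicate 1 was the highest in each of the 4 groups.

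MCM2 (chr3:127598410-127622436, plus strand), a regulatory subunit of the ring that also binds histones, had 59.5, 51.8 and 55.4 CPM in WT shControl and 34.5, 35.0 and 34.0 in WT shMBD6. In the KO, MCM2 had 39.1, 38.7 and 37.7 CPM under the shControl label and 69.8, 63.2 and 62.9 under the shMBD6 label. Each of the 4 groups of MCM2 was separate. MCM3 (chr6:52264014-52284881, minus strand), a subunit that contacts ORC and CDC6 during loading, had 194, 190.0 and 178 CPM in WT shControl and 119, 110.3 and 116 in WT shMBD6, and its KO libraries had 144, 140.4 and 139 under shControl and 200.2, 218 and 212 under shMBD6. MCM5 (chr22:35400134-35425431, plus strand), which forms the gate of the ring with MCM2, had 110.2, 97.6 and 98.0 CPM in WT shControl and 86.5, 85.6 and 78.4 in WT shMBD6, against 84.5, 87.0 and 85.5 in the KO labelled shControl and 117, 117 and 112 in the KO labelled shMBD6. The low groups of MCM5 overlapped each other, and those of MCM3 did not.

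MCM4, MCM6 and MCM7 form the catalytic core of the ring. MCM4, on chromosome 8, had 94.7, 95.5 and 98.9 CPM in WT shControl, 74.6, 66.6 and 68.5 in WT shMBD6, 81.5, 87.9 and 80.7 in the KO labelled shControl and 112, 116 and 111 in the KO labelled shMBD6. MCM6 (chr2:135839626-135876443, minus strand) had 93.9, 96.3 and 98.1 CPM in WT shControl, 66.6, 61.6 and 65.0 in WT shMBD6, 62.1, 72.4 and 66.7 in the KO labelled shControl and 98.9, 106 and 104 in the KO labelled shMBD6. Both genes followed the common order, and the low groups of MCM6 overlapped. MCM7 (chr7:100092233-100101940, minus strand) had 125, 117 and 115 CPM in WT shControl and 79.5, 81.8 and 76.4 in WT shMBD6, but 114, 119.7 and 109 in the KO labelled shControl, which overlapped WT shControl, and 159, 164 and 157 in the KO labelled shMBD6. The introns of MCM7 hold the MIR106B, MIR93 and MIR25 hairpins on the same strand, each at 0 counts in every library, and 4.04% of the span of MCM7 lies under AP4M1 on the opposite strand. MCM10 (chr10:13161558-13211110, plus strand) had 86.5, 86.9 and 86.8 CPM in WT shControl, 67.8, 68.2 and 70.1 in WT shMBD6, 72.7, 71.2 and 70.3 in the KO labelled shControl and 90.6, 94.2 and 90.7 in the KO labelled shMBD6, and no group of MCM10 overlapped another.

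**Figure D2:**
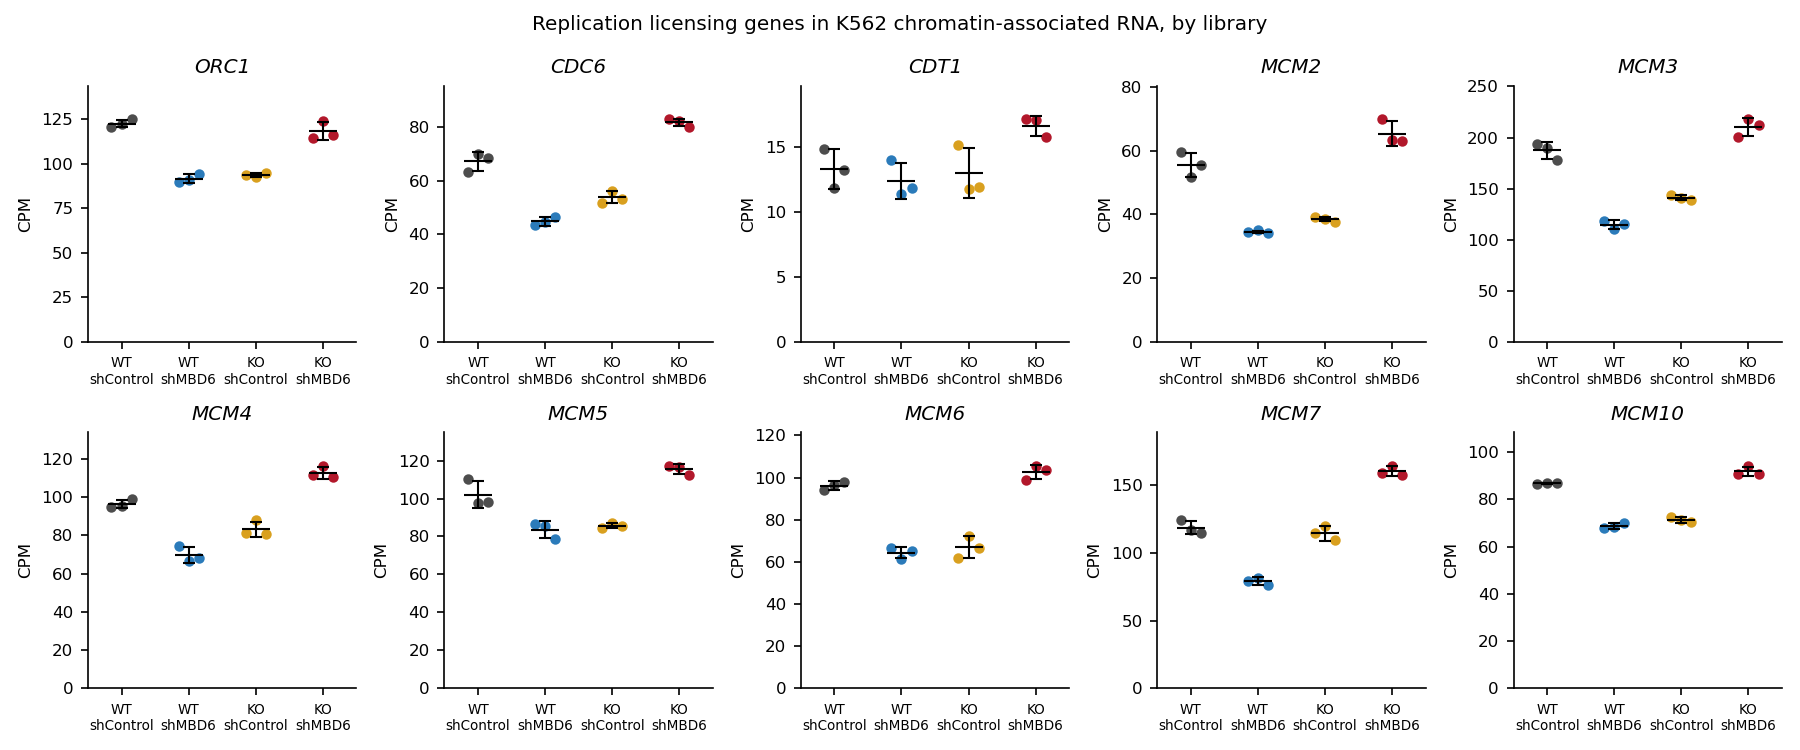
CPM of each licensing gene (y axis, from 0) in the 12 K562 libraries, by TET2 genotype and knockdown label (x axis). Points are libraries, bars are the mean ± SD of 3. All members but MCM7 and CDT1 are low in WT shMBD6 and in the KO labelled shControl, while MCM7 stays near 114 CPM in the latter.

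The first comparison asked what loss of the reader does where TET2 is intact. In WT cells 9 of the 10 members were lower with shMBD6 than with shControl. The adjusted p-values are from edgeR's quasi-likelihood test over all genes, and log2 changes are given ± SE. In the same comparison 24.7% of all genes tested and 59.3% of well-expressed genes were called lower. MCM3 fell by 0.71 ± 0.04 on the log2 scale (adjusted p = 1.24e-16) and MCM2 by 0.69 ± 0.06 (adjusted p = 1.17e-11). CDC6, MCM7 and MCM6 fell by 0.58 each, MCM4 by 0.46, ORC1 by 0.42, MCM10 by 0.34 and MCM5, the least of those called, by 0.29 ± 0.05 (adjusted p = 3.76e-06). CDT1, at -0.10 ± 0.11, did not pass (adjusted p = 0.506). The median over the members was -0.52, against 0.10 over all genes tested and -0.17 over the 5959 well-expressed genes. The groups did not overlap for the 9 members called, but the share of all genes with separate groups was not counted.

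Under the shControl label 8 of 10 members were lower in the KO than in WT, beside 22.3% of all genes tested and 33.1% of well-expressed genes called lower. MCM2 fell by 0.53 ± 0.06 (adjusted p = 2.32e-09) and MCM6 by 0.52 ± 0.05 (adjusted p = 5.47e-11) on the log2 scale. MCM3 fell by 0.41, ORC1 by 0.39, CDC6 by 0.32, MCM10 by 0.28, MCM5 by 0.25 and MCM4 by 0.21 (adjusted p = 0.000237). CDT1 (-0.03 ± 0.11, adjusted p = 0.833) and MCM7 (-0.05 ± 0.04, adjusted p = 0.301) did not pass. The median of the members was -0.30, against -0.05 over all genes and 0.04 over well-expressed genes. With library size taken as the total of gene counts MCM7 was called lower too, at -0.23 (adjusted p = 1.48e-05). As the KO libraries labelled shControl held less MBD6 RNA than WT shControl, by 0.46 ± 0.08 on the log2 scale (adjusted p = 6.50e-06), genotype and MBD6 level cannot be told apart here.

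MCM7 stood apart with its neighbourhood. Of the 36 other genes within 5 Mb that were well expressed, 29 were called higher and 3 lower in the KO than in WT under shControl, with a median of 0.43, and 34 were higher and 1 lower under shMBD6, with a median of 0.51. MCM7 lay 0.48 below its neighbours' median in the first comparison and 0.50 above it in the second. For the other 9 members the same median of neighbours under shControl lay between -0.19 (CDC6) and 0.17 (MCM4). Between knockdown labels the neighbours of MCM7 had medians of -0.14 in WT and -0.05 in the KO. DNA copy number was not measured in these libraries and its part in the MCM7 values was not tested.

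In the KO the libraries labelled shMBD6 held more of all 10 members than those labelled shControl. No member's groups overlapped, but the share of all genes with separate groups was not counted, so whether this is particular to the members is unknown. Called higher in this comparison were 15.7% of all genes tested and 32.0% of well-expressed genes. MCM2 rose by 0.76 ± 0.06 (adjusted p = 1.08e-12), MCM6 by 0.62 ± 0.05 and CDC6 by 0.60 ± 0.05 on the log2 scale. MCM3 rose by 0.58, MCM7 by 0.49, MCM4 by 0.44, MCM5 by 0.43, MCM10 by 0.36 and ORC1 by 0.33. CDT1 rose by 0.36 ± 0.11 (adjusted p = 0.0114), a call that was lost without KO shControl replicate 2 (0.29, adjusted p = 0.0766) or replicate 3 (0.30, adjusted p = 0.0720). The members' median of 0.46 stood beside -0.07 over all genes and -0.02 over well-expressed genes. Since MBD6 goes against these 2 labels by its mean, without passing, the sign of each value holds for the labels only.

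**Figure D3:**
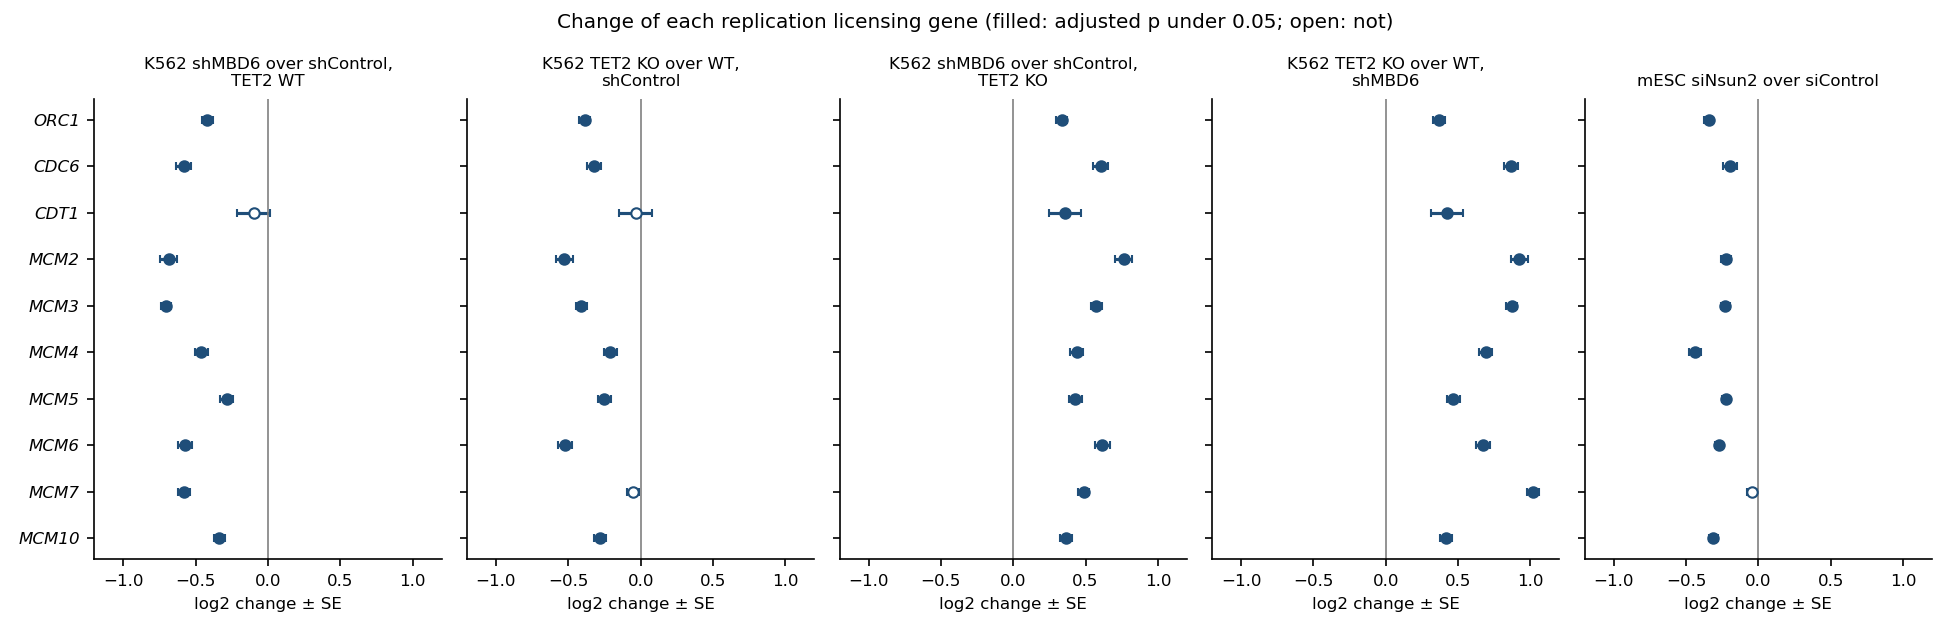
Log2 change ± SE (x axis) of each licensing gene (rows) in 4 K562 comparisons and in mESCs. Filled points passed an adjusted p of 0.05 in edgeR and open points did not. The members lie left of 0 in the first pair of panels and in mESCs, and right of 0 in the others, with directions in the KO as labelled.

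Under the shMBD6 label the KO exceeded WT for all 10 members, beside 30.1% of all genes tested and 64.0% of well-expressed genes. MCM7 differed most, by 1.02 ± 0.04 (adjusted p = 3.78e-20), then MCM2 by 0.92, MCM3 by 0.87 and CDC6 by 0.86. ORC1 differed least, by 0.37 ± 0.04 (adjusted p = 1.19e-09), and the remaining 5 lay between 0.42 and 0.69. The call for CDT1 (0.42) was lost with TMM on well-expressed genes (0.21, adjusted p = 0.126). The median of the members was 0.68, against -0.03 over all genes and 0.22 over well-expressed genes.

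The effect of the knockdown label differed between genotypes for all 10 members (a genotype by knockdown interaction in the same model), where 23.9% of all genes tested and 48.8% of well-expressed genes had a positive interaction. The interaction ran from 1.45 ± 0.08 for MCM2 (adjusted p = 3.27e-16) to 0.46 ± 0.16 for CDT1 (adjusted p = 0.0166) on the log2 scale. The call for CDT1 was lost with other scalings (down to 0.30, adjusted p = 0.128), with DESeq2's test (0.36, adjusted p = 0.0671) and without WT shControl replicate 1 (0.38, adjusted p = 0.0568), KO shControl replicate 2 (0.40, adjusted p = 0.0522) or KO shControl replicate 3 (0.41, adjusted p = 0.0502). The 5 K562 comparisons share libraries, so their values are not independent of each other.

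A contrast of the high groups, chosen after their levels were seen, found 7 of 10 members higher in the KO labelled shMBD6 than in WT shControl, with 18.8% of all genes tested and 35.6% of well-expressed genes called higher. MCM7 rose most, by 0.43 ± 0.04 (adjusted p = 1.08e-10), where its neighbours' median was 0.42. The others called were CDT1, CDC6, MCM2, MCM4, MCM5 and MCM3, at 0.32 down to 0.17, and MCM6 (0.10), MCM10 (0.08) and ORC1 (-0.05) did not pass. The call for CDT1 was lost without WT shControl replicate 2 (0.24, adjusted p = 0.133) or replicate 3 (0.32, adjusted p = 0.0535), or KO shMBD6 replicate 2 (0.30, adjusted p = 0.0548).

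The place of the members among well-expressed genes varied by member and comparison. Of the log2 changes of the 5959 well-expressed K562 genes for WT shMBD6, MCM3 was at percentile 2.95, MCM2 at 3.27, CDC6 at 6.53, MCM7 at 6.54 and MCM6 at 6.85, while MCM4 (14.3), ORC1 (18.0), MCM10 (27.3) and MCM5 (33.6) lay nearer the middle. For shMBD6 in the KO the 10 members ran from percentile 88.2 (ORC1) to 99.2 (MCM2). For KO over WT they ran from 5.50 (MCM2) to 41.2 (CDT1) under shControl and from 66.4 (ORC1) to 96.4 (MCM7) under shMBD6. CDT1, which is below that level itself, was at percentile 60.2 for WT shMBD6 and 89.9 for shMBD6 in the KO. In mESCs the members ran from percentile 5.20 (Mcm4) to percentile 83.6 (Mcm7).

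**Figure D4:**
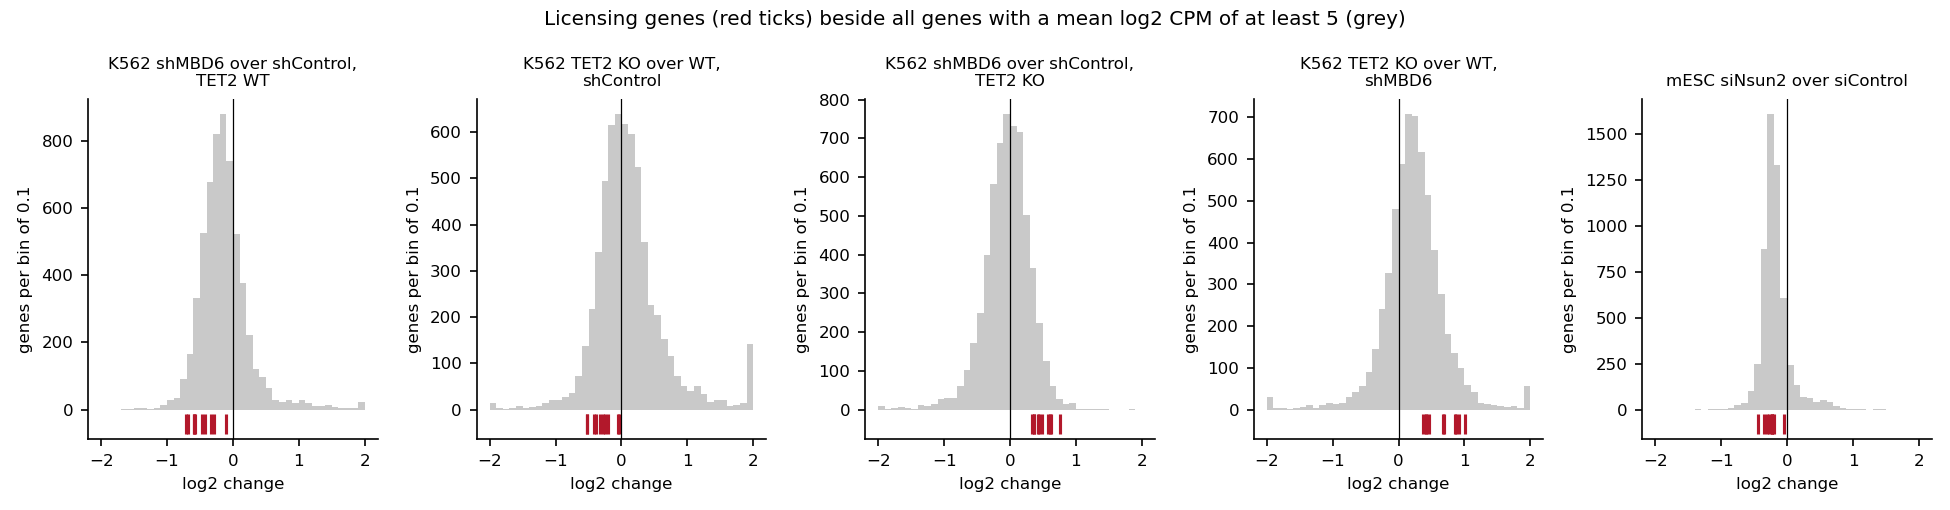
Histograms (grey, genes per bin of 0.1) of log2 changes over well-expressed genes (average log2 CPM of 5 or more), with the licensing genes as red ticks. Changes past ±2 are stacked in the end bins. For WT shMBD6 the ticks run from the lower flank (MCM3, -0.71) into the body of the histogram (CDT1, -0.10), for shMBD6 in the KO they sit in the upper flank, and in mESCs on both sides of the peak.

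Other library measures moved over the same 4 groups. The mitochondrial share of gene counts was 0.0229% ± 0.000893 in WT shControl, 0.0460% ± 0.00490 in WT shMBD6, 0.0514% ± 0.00288 in the KO labelled shControl and 0.0254% ± 0.00200 in the KO labelled shMBD6, so it was high where the members were low. The mean level of olfactory receptor genes, which these cells are not known to express and which here stands for background, was 0.0636 ± 0.00248, 0.0731 ± 0.00191, 0.0914 ± 0.00233 and 0.0677 ± 0.00220 CPM per kb in the same order. By its mean, MBD6 itself was highest in WT shControl and next in the KO labelled shMBD6. The part of these measures in the members' order was not tested. Fibroblast markers, listed for other cells, summed to between 59.3 and 65.4 CPM in WT shControl and between 165 and 223 in the other groups, nearly all of it COL6A3 (60.6 and, at most, 212 CPM), with COL1A2 and COL3A1 at a mean under 1 CPM in each group. COL1A1 stood at 0.236 ± 0.0804, 2.23 ± 0.515, 1.89 ± 0.417 and 0.384 ± 0.289 CPM in the same order, so it too was higher where the members were low, and 3 of the 8 markers reached 1 CPM in those groups against 1 in the others. Their part was not tested.

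Other replication genes were followed by lists, given as counts called in each direction. Beside them, 59.3% of well-expressed genes were called lower in WT shMBD6 and 33.1% in the KO against WT under shControl. For shMBD6 over shControl in the KO, 32.0% of well-expressed genes were called higher. Some lists lay below these shares, such as the fork list in WT shMBD6 (9 of 19) and licensing control for shMBD6 in the KO (3 of 13 higher). In WT shMBD6, called lower were 10 of 13 genes of origin recognition and licensing control, 12 of 15 of origin firing and the CMG helicase, 9 of 19 of polymerases and the fork, 15 of 18 other S phase genes, 12 of 13 of the E2F and RB family and 13 of 16 of G2 and mitosis, while 0 to 1 of each list was higher. In the KO against WT under shControl the lists were mixed, with 5 higher and 2 lower in licensing control, 5 and 5 in firing, 7 and 6 at the fork, 3 and 10 in S phase, 3 and 7 in the E2F and RB family and 2 and 9 in G2 and mitosis. For shMBD6 over shControl in the KO, 3 were higher and 4 lower in licensing control, 8 and 2 in firing, 10 and 3 at the fork, 13 and 1 in S phase, 7 and 2 in the E2F and RB family and 6 and 3 in G2 and mitosis. The licensing control list, which holds the other ORC subunits and regulators such as DDB1 and SKP2, had a median log2 change of 0.01 in that comparison, where the 10 members had 0.46. The median for S phase genes was 0.38 and for G2 and mitosis 0.08.

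The genes closest to the members' mean profile over the 12 K562 libraries, among 5950 well-expressed candidates, were TRIB3 (Pearson r = 0.995), COLGALT2 (0.992), PAICS (0.989), MARS1 (0.989) and WDR91 (0.988). TRIB3 had mean levels of 121 CPM in WT shControl, 89.6 in WT shMBD6, 99.5 in the KO labelled shControl and 135 in the KO labelled shMBD6. These points share group and depth, and with so many candidates the r values only rank likeness. Among the members, r with the mean of the others was lowest for CDT1 (0.692) and ORC1 (0.884) and highest for MCM3 (0.983).

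In mESCs the siNsun2 libraries held less of 8 of the 9 members tested, beside 24.3% of all genes tested and 78.7% of well-expressed genes called lower, so the share of members called was close to that of genes at their level. Orc1 had 144, 145 and 152 CPM in siControl and 114, 116 and 117 in siNsun2. Mcm4 had 69.0, 65.8 and 72.8 CPM in siControl and 51.5, 51.1 and 50.6 in siNsun2. Mcm10 had 121, 125 and 123 CPM in siControl and 96.5, 97.9 and 103 in siNsun2. These genes had the largest changes of the set. Their groups did not overlap, but the share of all genes with separate groups was not counted. Mcm4 fell by 0.44 ± 0.04 on the log2 scale (adjusted p = 3.67e-16), Orc1 by 0.34 ± 0.03 (adjusted p = 1.24e-17) and Mcm10 by 0.31 ± 0.03 (adjusted p = 1.10e-14).

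The loader Cdc6 had 40.2, 40.9 and 41.8 CPM in siControl and 35.7, 35.0 and 36.6 in siNsun2 and fell by 0.20 ± 0.05 (adjusted p = 0.000459). Mcm6, Mcm3, Mcm5 and Mcm2 fell by 0.27, 0.23, 0.22 and 0.22 on the log2 scale. Mcm2 had 97.9, 98.0 and 97.3 CPM in siControl and 82.2, 81.5 and 87.2 in siNsun2, and these ranges were apart. Mcm7 had 84.8, 83.0 and 82.2 CPM in siControl and 79.9, 79.9 and 82.4 in siNsun2, which overlap, and its change of -0.05 ± 0.03 did not pass (adjusted p = 0.265), though DESeq2's test called it lower at -0.11 (adjusted p = 0.0110). The 9 members had a median of -0.23, where well-expressed genes had -0.21 and all genes tested 0.14.

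**Figure D5:**
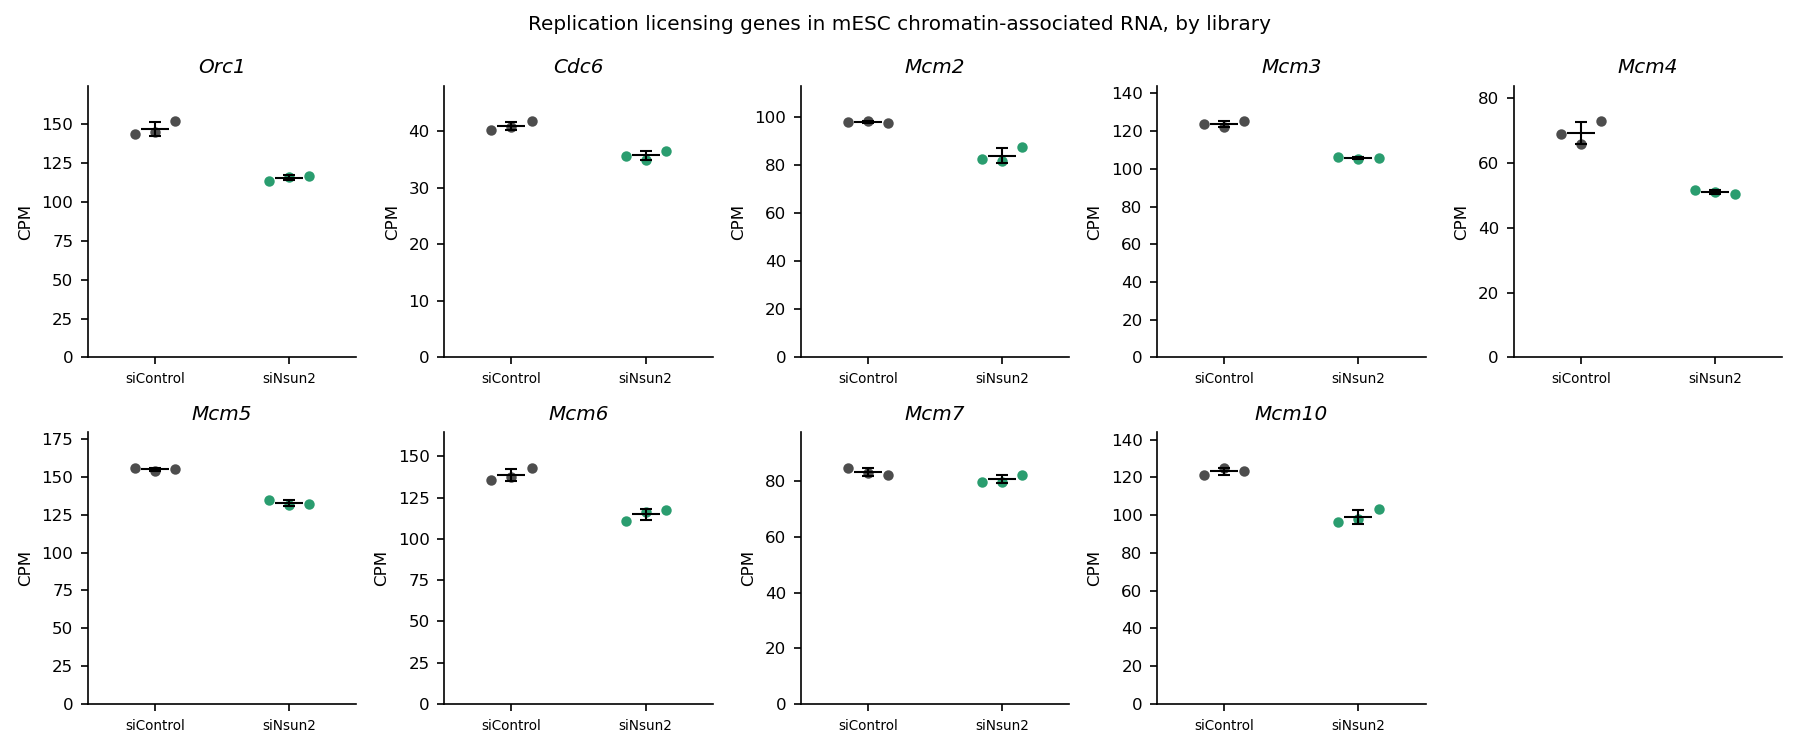
CPM of 9 licensing genes (y axis, from 0) in the 6 mESC libraries (x axis, siRNA). Points are libraries, bars are the mean ± SD of 3. The siNsun2 libraries lie below the siControl libraries for each gene but Mcm7, whose ranges overlap.

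The scaling of libraries decides most of these mESC calls. With factors set on well-expressed genes the all-gene median shifted from 0.14 to 0.34, and the genes called moved from 7128 higher and 6716 lower to 11016 higher and 2033 lower. Under that scaling 3 members, Mcm4, Mcm10 and Orc1, were lower, Mcm7 was higher at 0.16 (adjusted p = 2.82e-05), and Cdc6 stood at 0.01. Reads that the counting assigned to no annotated feature were 19.9% ± 0.348 in siControl and 29.4% ± 0.464 in siNsun2. Olfactory receptor genes stood at 0.0278 ± 0.00220 and 0.0414 ± 0.00241 CPM per kb. Their part in the result was not tested.

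Mouse Cdt1 (chr8:122568015-122573554, plus strand, GRCm38) cannot be read from these counts. It lies wholly inside Gm20388, a gene model on the same strand, and had 0 counts in each of the 6 libraries, while Gm20388 had 296 ± 6.68 CPM in siControl and 389 ± 19.3 in siNsun2. How reads on both models were assigned was not tested, and the 0 gives no level for Cdt1. Orc1 is overlapped over 63.3% of its span by Gm12743 on the opposite strand, which had 313 to 449 counts.

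In mESCs, called lower were 12 of 13 genes of licensing control, 15 of 15 of firing, 18 of 20 at the fork, 16 of 18 of S phase and 14 of 16 of G2 and mitosis, and in the E2F and RB family 8 were lower and 3 higher, beside 78.7% of all well-expressed genes. Pluripotent cell markers summed to 1250 CPM in siControl and 1072 in siNsun2, and fibroblast markers, which could mark feeder cells, to 36.8 and 35.1. The genes closest to the mean profile of the 9 members over the 6 libraries, among 5525 candidates, were Alms1, Arfgef1, Dbf4, Taok3 and Cenpf, with r from 0.999 to 1.00. These libraries form 2 groups, and with so many candidates the r values only rank likeness. Dbf4, the regulatory subunit of the kinase that fires licensed origins, had a mean of 154 CPM in siControl and 120.3 in siNsun2.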

How the data were processed

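Per the labels and the study's methods, caRNA was depleted of ribosomal RNA, made into stranded libraries and sequenced on a NovaSeq, with 3 replicates per condition. The authors' deposited files hold raw read counts per GENCODE gene (Trimmomatic 0.39, HISAT2 2.2.1 to mm10 or hg38, HTSeq 0.12.4, from the submitters' processing notes). Whether counting used strand, and whether it used exons or whole genes, is not given in the sources used here. The files hold 0 spike-in lines, so total RNA per cell is unknown. HTSeq's summary lines entered neither library sizes nor tests. Symbols, gene positions and exon lengths came from GENCODE M21 and v44.

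Counts were fitted with edgeR 4.0.16 (R 4.3.3, TMM, filterByExpr with a minimum count of 10, robust quasi-likelihood), in 1 model of 12 K562 libraries and 1 of 6 mESC libraries, with Benjamini-Hochberg adjustment over all genes tested and calls at 0.05. DESeq2 1.42.0 was an alternative. The scripts were tested on simulated data. CPM use TMM library sizes, and SDs rest on 3 libraries per group. Each SE was the size of the log2 change divided by the square root of the test's F statistic. It rests on a spread estimated over all libraries of the model and moderated across genes. The study calls its replicates biological. Whether separate cultures were used is not given in the sources used here. The p-values measure the spread between these libraries. Named were all 10 members, the targeted genes, at most 2 genes per other list, the 5 genes with the most similar profile, and the neighbours within 5 Mb. The members, lists and tests were chosen with earlier results of these data known. The values reported carry no replicate block. For shMBD6 over shControl in WT, deviations from group means of same-numbered libraries correlated at 0.44, 0.18 and 0.19 over the 3 pairs. Differently numbered libraries were not compared, so these values cannot show whether libraries were paired. No other comparison had every pair over 0.1. The block was run as an alternative.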

Additional observations from a re-analysis of the deposited data

Results flagged for a closer look

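For each K562 member the fitted change with the shMBD6 label was negative in WT and positive in KO cells (for CDT1 the change in WT did not pass), and the interaction test of that difference in edgeR was called for each, beside 23.9% of all genes tested and 48.8% of well-expressed genes with a positive call. For CDT1 the call was lost with DESeq2's test or size factors, with TMM on well-expressed genes, and without WT shControl replicate 1 or KO shControl replicate 2 or 3 (adjusted p from 0.0502 to 0.128). On the log2 scale the interaction was 1.45 for MCM2, 1.28 for MCM3, 1.19 for MCM6, 1.19 for CDC6, 1.07 for MCM7, 0.90 for MCM4, 0.75 for ORC1, 0.72 for MCM5, 0.70 for MCM10 and 0.46 for CDT1. MBD6 had an interaction of the same sign, 0.75 ± 0.11 (adjusted p = 4.51e-07), and by its mean goes against the KO labels, a difference that did not pass. Groups of 3 libraries were too small to look for outlying samples.

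A library of Pspc1 WT mESCs that no comparison uses held 9 of the 10 members above 3 counts, with Cdt1 at 0 again. Scaled to its gene counts it had 249 CPM for Orc1, 244 for Mcm5, 205 for Mcm7 and 67.8 for Cdc6. It is a single library of another experiment and was compared with none.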

How the results depend on the processing

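In mESCs the members called lower fell from 8 to 4, with 1 called higher, when library size was the total of gene counts, and to 3, with 1 called higher, with TMM on well-expressed genes. They fell to 4 when a fold of at least 1.2 was also asked. Mcm7 reversed to 0.13 with total counts and to 0.16 with TMM on well-expressed genes, under which Cdc6 reversed to 0.0139. In the KO labelled shMBD6 over WT shControl, 1 member (ORC1) was called lower with total counts and with TMM on well-expressed genes, and 3 in place of 7 were called higher with the fold. The other counts of members called stayed within 1.5 times of the values given under every alternative run, leaving out each library included. With a replicate block the counts of members called were 8, 8, 9, 10, 10, 10 and 7 in the order reported from mESCs to that last contrast, so the block changed no count. The members' median ranged over scalings, tests and filters from -0.29 to -0.02 in mESCs, -0.48 to -0.30 for KO over WT under shControl, -0.52 to -0.35 for WT shMBD6, 0.46 to 0.59 for shMBD6 in the KO, 0.47 to 0.68 for KO over WT under shMBD6 and 0.83 to 1.01 for the interaction.

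Over all K562 genes the scaling moved the balance of calls. For WT shMBD6 it went from 4616 higher and 6431 lower to 6567 and 3842 (TMM on well-expressed genes), for KO over WT under shControl from 6127 and 5794 to 4523 and 8285 (total counts), for shMBD6 in the KO from 4095 and 5370 to 6046 and 4047 (total counts), under the shMBD6 label from 7837 and 7422 to 4896 and 9605, and for the interaction from 6225 and 6627 to 4848 and 7874 (both TMM on well-expressed genes). The causes were not tested. CDT1, with the fewest counts, had the largest SE of the members.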

Other observations

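Genes near the members in function showed both the same and other orders over the K562 groups. E2F8, a repressor that E2F factors induce, had 70.3 ± 3.52 CPM in WT shControl, 37.1 ± 1.55 in WT shMBD6, 35.7 ± 2.54 in the KO labelled shControl and 71.7 ± 3.08 in the KO labelled shMBD6, with an interaction of 1.93 ± 0.08 (edgeR, adjusted p = 1.55e-19). PCNA, the sliding clamp, had the same order of groups at 19.4, 11.7, 12.04 and 19.9 CPM, with an interaction of 1.46 ± 0.14. RB1, which restrains E2F, was higher in the groups where the members were low, at 120.4, 143, 161 and 86.4 CPM in that order of groups, with an interaction of -1.14 ± 0.05 (adjusted p = 1.75e-18). RECQL4, a helicase needed for origin firing, was lowest in WT shControl and highest in the KO labelled shControl, at 49.9, 72.2, 107 and 79.2 CPM, and its interaction was -0.96 ± 0.07. These genes were among the extremes of their lists, so they were picked by their values.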
